A study of Homo sapiens with 16 samples.

Results

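The genes described here are 9 interferon-stimulated genes and sensors of foreign RNA, chosen by symbol: RIGI, IFIH1 and TLR3, which detect RNA, and IFIT1, IFIT2, IFIT3, OAS1, ISG15 and MX1, which carry out the antiviral response. The members, and the gene lists used below, were chosen with earlier results of these data known. All 9 members were found among the 58051 genes of the count table, and all 9 passed the filter on low counts in every comparison. RNA was sequenced from LNCaP, an androgen-sensitive human prostate cancer cell line, in 4 groups of 4 libraries. The siCtrl and siXBP1 groups were reverse-transfected with the Allstar control siRNA or with siRNA to XBP1 and grown for 2 days, and the Vehicle and MKC8866 groups received DMSO or 10 µM MKC8866, an inhibitor of the IRE1α RNase, for 24 h. Every group, controls included, was then given 30 nM thapsigargin (TG), which empties the calcium store of the endoplasmic reticulum and so causes stress there, for 3 h. On GRCh38 the sensor genes lie at chr9:32455705-32526324 (RIGI, ENSG00000107201), chr2:162267079-162318703 (IFIH1, ENSG00000115267) and chr4:186069152-186088069 (TLR3, ENSG00000164342). The IFIT genes lie at chr10:89283694-89309276 (IFIT2, ENSG00000119922), chr10:89327894-89340971 (IFIT3, ENSG00000119917) and chr10:89392546-89406486 (IFIT1, ENSG00000185745), OAS1 (ENSG00000089127) at chr12:112906777-112933222, ISG15 (ENSG00000187608) at chr1:1001138-1014541 and MX1 (ENSG00000157601) at chr21:41420304-41459214. There was no group without TG, none without siRNA in the knockdown experiment, and none treated with interferon or foreign RNA, so the values describe stressed cells only.

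RIGI and IFIH1 are helicases of the cytosol that bind viral or otherwise unusual double-stranded RNA and signal through the mitochondrial protein MAVS, while TLR3 binds such RNA in endosomes and signals through TICAM1. These signals switch on interferon genes, and secreted interferon acts back on its receptors, through JAK kinases and the transcription factors they activate, to raise many target genes, the sensors among them. IRE1α is an endonuclease of the endoplasmic reticulum that splices XBP1 mRNA under stress, and the spliced product encodes the transcription factor XBP1s.

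Total counts ranged from 28713607 to 34509488 per library. XBP1 itself, the targeted gene, measured 359 to 422 CPM (counts scaled to a common library total, after TMM) in siCtrl and 51.2 to 54.2 in siXBP1, a log2 fold change of -2.85 (SE 0.05). With MKC8866, which inhibits the splicing of XBP1 mRNA, total XBP1 counts, which do not tell spliced from unspliced mRNA, were 0.20 higher on the log2 scale (SE 0.04, adjusted p = 0.00493). All 8 luminal prostate markers of the list used were present, with summed levels of 3510 to 3643 CPM in siCtrl, 2886 to 3021 in siXBP1, 3501 to 3680 in Vehicle and 3854 to 3981 in MKC8866. The sum was thus lowest after knockdown, and the part of this shift in the results below was not tested. Of 11 markers of immune, endothelial, stromal and basal cells, 7 had at most 3 counts in every library. The list summed to 34.7 to 42.8 CPM in siCtrl, 39.2 to 43.7 in siXBP1, 35.9 to 45.7 in Vehicle and 35.3 to 41.7 in MKC8866. Most of this came from the stromal marker COL1A1 and the endothelial marker VWF, with means of 29.6 and 8.27 CPM in siCtrl and 32.9 and 8.12 in siXBP1. The other stromal markers, COL1A2 and DCN, and the other endothelial marker, PECAM1, were among the 7 with at most 3 counts. The labels do not say whether replicates were separate cultures, so p-values measure the spread between these libraries, which may be technical.

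The control regions of several members carry the sequence that the interferon-activated STAT and IRF factors are known to bind, built of GAAA repeats. In windows from 250 bases before to 50 after each RefSeq start (GRCh38.p14), available for 8 of the 9 members, GAAANNGAAA was found on either strand in 6 members (IFIH1, IFIT1, IFIT3, ISG15, MX1 and TLR3), against 4.38% of 27305 genes. GAAANGAAA was found in 4 (IFIT3, MX1, OAS1 and RIGI), against 3.87% of genes, and the matches of these spacings can overlap. The element TGACGTGG, known to be bound by XBP1s, was found in none of the 8, and in 0.927% of all genes. At that share a match among 8 genes was unlikely in any case, and only this exact form was searched. The absence thus does not tell whether XBP1s binds near these genes. The stretches around the matches are shown for members whose RNA fell after XBP1 knockdown (RIGI, OAS1, IFIT1 and IFIT3) and for those whose RNA was not called (IFIH1 and ISG15), 5′ to 3′ on the gene's strand, with the GAAA repeats or, where these lie on the other strand, TTTC repeats and the bases between them in capitals.
RIGI, chr9:32526376-32526414, minus strand: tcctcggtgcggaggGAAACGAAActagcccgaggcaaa
OAS1, chr12:112906930-112906961, plus strand: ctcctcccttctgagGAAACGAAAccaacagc
IFIT1, chr10:89392492-89392544, plus strand: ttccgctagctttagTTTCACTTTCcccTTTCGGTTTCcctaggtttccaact
IFIT3, chr10:89327826-89327899, plus strand: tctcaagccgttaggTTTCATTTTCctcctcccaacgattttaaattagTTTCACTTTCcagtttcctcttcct
IFIH1, chr2:162318685-162318858, minus strand: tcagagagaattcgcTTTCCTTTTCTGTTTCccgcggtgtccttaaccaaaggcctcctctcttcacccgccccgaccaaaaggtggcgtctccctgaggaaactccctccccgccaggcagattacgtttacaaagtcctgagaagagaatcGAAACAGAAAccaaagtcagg
ISG15, chr1:1013369-1013414, plus strand: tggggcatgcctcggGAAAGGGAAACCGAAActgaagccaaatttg

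**Figure D1:**
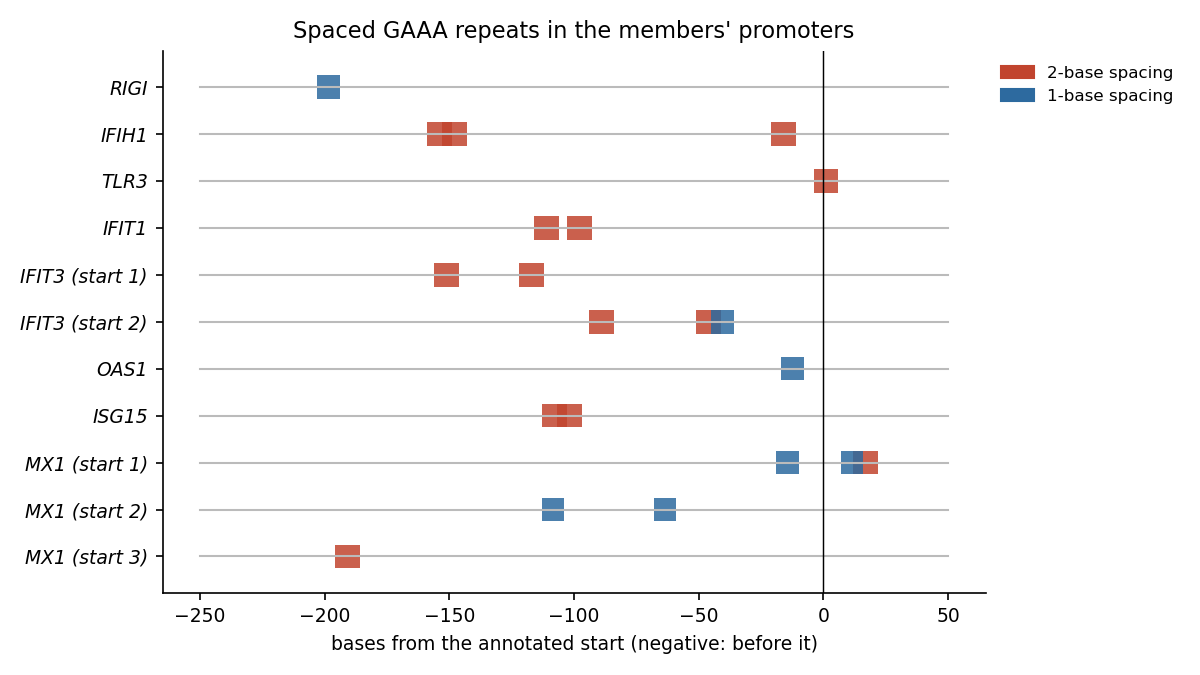
Position of spaced GAAA repeats in each member's promoter, in bases from the annotated RefSeq start (x axis, negative before the start), with 1 line per start. Red bars mark the spacing of 2 bases and blue bars that of 1 base, on either strand. Every start of the 8 members holds at least 1 match, whether or not the gene's RNA fell after knockdown.

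A match of this kind describes the sequence and is not a measured binding site. RIGI and OAS1, with 1 match each and of the narrower spacing, fell after knockdown, while IFIH1 with 3 matches and ISG15 with 2 did not pass the test. MX1, with matches of both spacings, did not pass it either, and IFIT2, which fell, had no promoter available. IFIT1, with 2 matches of the wider spacing, and IFIT3, with matches of both spacings, fell as well. So, narrowly, did TLR3, with 1 match of the wider spacing. Each of the 8 members with a promoter held at least 1 match, so presence alone could not separate those that fell from the rest. The part of spacing or number was not tested.

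Levels were low for most members. In RPKM, which is CPM per kilobase of exon, ISG15, a ubiquitin-like protein that is joined to other proteins, stood far above the rest with a mean of 26.6 over the 16 libraries. The sensors IFIH1 and RIGI followed at 5.05 and 4.04 RPKM, and then IFIT2 at 3.27, IFIT3 at 1.86, IFIT1 at 1.73 and TLR3 at 1.32 RPKM. MX1, a GTPase that traps viral nucleocapsids, measured 0.89 RPKM, and OAS1, which makes the 2-5A messenger that activates RNase L, was lowest at 0.51. The order was not the same in every group. In siCtrl the libraries of IFIH1 and RIGI overlapped (4.97 ± 0.25 and 4.76 ± 0.41 RPKM, SD, n = 4), as did those of IFIT3 and IFIT1. In siXBP1, IFIH1 (5.29 ± 0.11) lay clear of RIGI (2.82 ± 0.12), and IFIT3, TLR3 and IFIT1 overlapped in that order between 1.31 and 1.20 RPKM. In Vehicle, RIGI and IFIT2 overlapped, as did IFIT1 and IFIT3, and in MKC8866 the overlapping neighbours were the same as in siCtrl.

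After XBP1 knockdown 6 of the 9 members fell and none rose: OAS1, IFIT2, RIGI, IFIT3, IFIT1 and, narrowly, TLR3. The XBP1 siRNA and the control siRNA came from different makers, and the paper lists no further XBP1 siRNA. Loss of XBP1 and any other difference between these siRNAs cannot be told apart in the siXBP1 against siCtrl values. Over all 21021 genes tested in this comparison, 18.2% were called lower and 16.5% higher, so that calls were common in either direction. The median log2 fold change was -0.67 over the members and 0.00 over all genes. Since the members and the lists below were chosen with earlier results of these data known, such shares are descriptive only. For the direction in which no member was called, edgeR also gave 0 members at an unadjusted p under 0.05, and DESeq2 called 0.

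Among the sensors, RIGI measured 21.6, 19.9, 18.7 and 22.7 CPM in the siCtrl libraries and 11.7, 12.3, 12.98 and 12.1 CPM in the siXBP1 libraries. Every knockdown library lay below every control library, and the fall was 1.68-fold (log2 fold change -0.75, SE 0.07, edgeR adjusted p = 1.84e-08). IFIH1, which encodes MDA5, the other helicase that signals through MAVS, measured 24.0, 21.3, 22.4 and 22.3 CPM in siCtrl and 23.2, 24.4, 24.3 and 23.9 CPM in siXBP1. These libraries overlapped, and the log2 fold change of 0.09 (95% confidence interval -0.03 to 0.21) was not called. TLR3 measured 9.88, 10.5, 8.99 and 9.03 CPM in siCtrl and 8.94, 8.59, 7.05 and 8.09 CPM in siXBP1. The groups just missed each other, with a log2 fold change of -0.23 (SE 0.09, edgeR adjusted p = 0.0462), and the call was lost with DESeq2, with other size factors, with either other filter, and without siCtrl replicate 1 or 2 or siXBP1 replicate 2, 3 or 4 (adjusted p from 0.0256 to 0.172 over all alternatives).

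The IFIT proteins bind foreign RNA by its 5′ end or join in complexes that do, and their genes lie side by side on chromosome 10. IFIT2 measured 15.8, 15.9, 15.8 and 16.2 CPM in siCtrl and 7.63, 7.89, 9.96 and 8.12 CPM in siXBP1. The groups were far apart, with a fall of 1.90-fold (log2 fold change -0.92, SE 0.08, edgeR adjusted p = 5.56e-09). IFIT1 measured 8.81, 8.69, 7.97 and 9.79 CPM in siCtrl and 5.32, 5.55, 6.61 and 4.68 CPM in siXBP1. Again no library overlapped, and IFIT1 fell 1.60-fold (log2 fold change -0.67, SE 0.10, edgeR adjusted p = 1.78e-05). IFIT3 measured 4.71, 6.24, 6.22 and 6.19 CPM in siCtrl and 3.18, 3.43, 3.15 and 4.11 CPM in siXBP1. The lowest control library still lay above the highest knockdown library, and the log2 fold change was -0.75 (SE 0.12, edgeR adjusted p = 3.54e-05). IFIT5, which lies in the same gene cluster and was looked up after the values of the others were seen, measured 4.90 ± 0.84 CPM in siCtrl and 5.06 ± 0.34 in siXBP1 (SD, n = 4) and was not called. The counts did not use strand, and IFIT2 shares 65 of its 4101 exon bases with LIPA, a lysosomal lipase gene on the other strand that fell as well (log2 fold change -0.59, SE 0.05). Fragments shared by both genes were left out of the counts. IFIT1 and IFIT3 share no exon base with LIPA. With MKC8866, LIPA was lower as well (log2 fold change -0.33, SE 0.05).

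Of the effectors, OAS1 changed most. It measured 3.82, 3.76, 3.12 and 3.40 CPM in siCtrl and 1.10, 1.31, 1.29 and 1.34 CPM in siXBP1, from 98 to 127 and from 32 to 44 counts per library. The groups did not overlap, and OAS1 fell by 1.48 on the log2 scale (SE 0.14, edgeR adjusted p = 2.82e-08). ISG15 measured 25.7, 21.7, 27.7 and 27.7 CPM in siCtrl and 23.3, 22.4, 26.9 and 21.96 CPM in siXBP1. The libraries overlapped, and the log2 fold change of -0.12 (95% confidence interval -0.28 to 0.04) was not called. MX1 measured 7.04, 7.57, 6.76 and 7.48 CPM in siCtrl and 7.25, 6.61, 7.69 and 6.88 CPM in siXBP1, with overlapping libraries and a log2 fold change of -0.02 (95% confidence interval -0.21 to 0.16). The intervals of ISG15, MX1 and IFIH1 thus leave out a fall of the size seen for IFIT1.

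**Figure D2:**
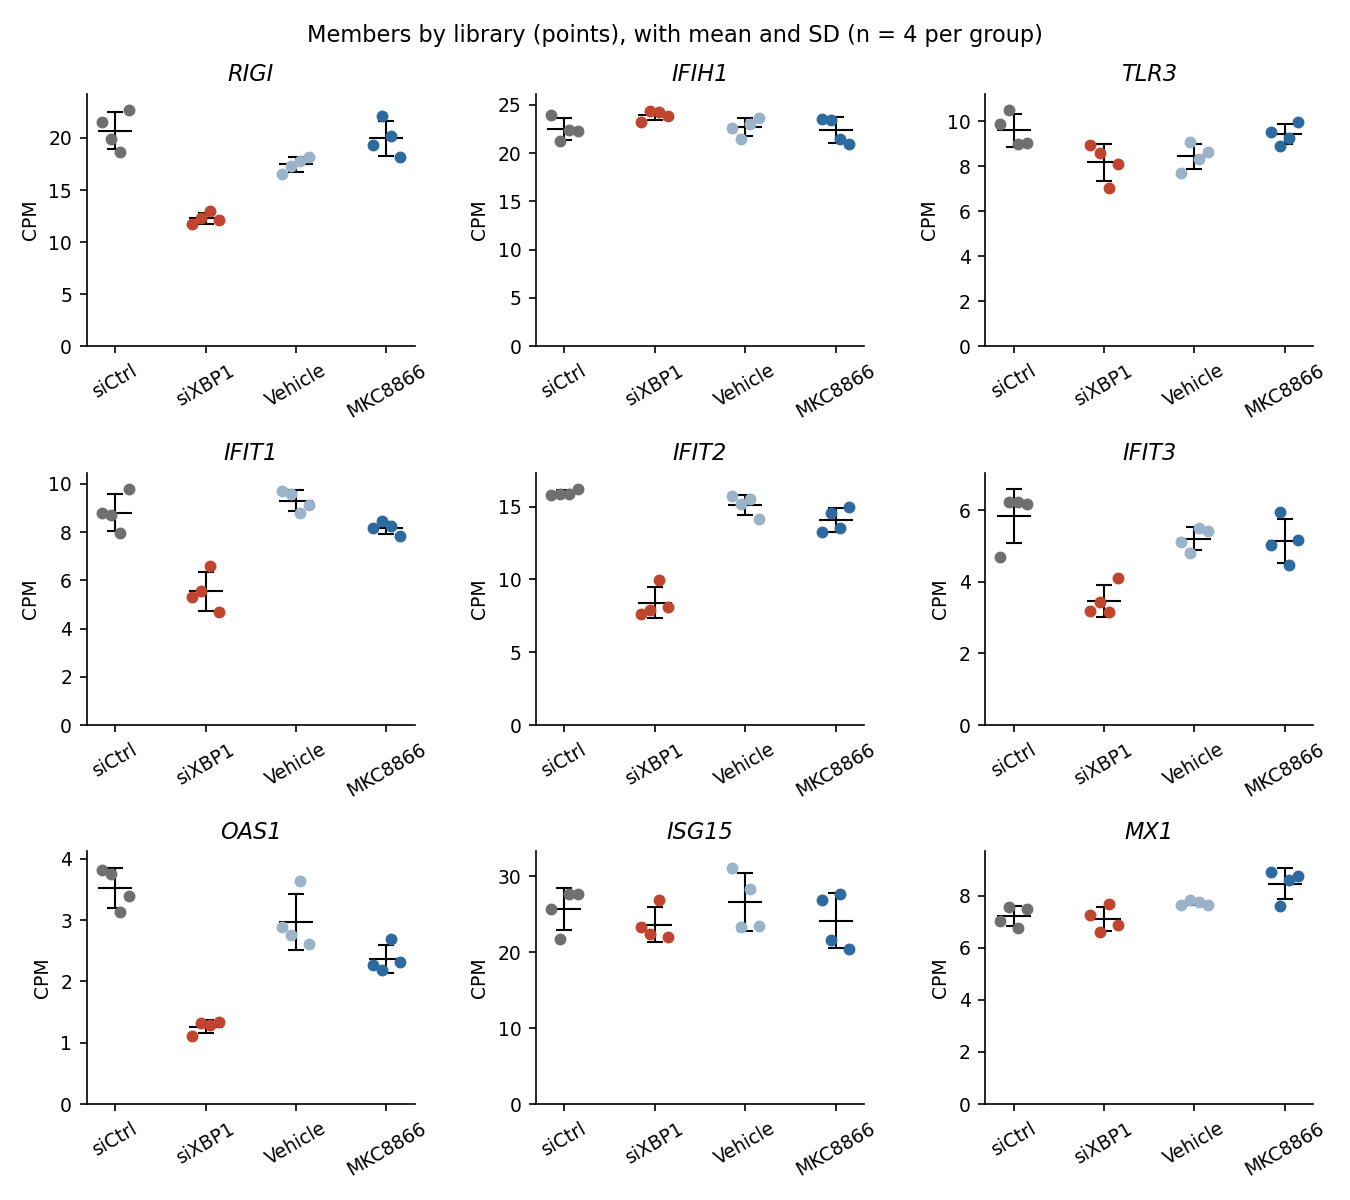
Level of each member in CPM (y axis, from 0) in the 4 libraries of each group (x axis). Points are libraries, and black lines give the mean and SD. RIGI, the 3 IFIT genes and OAS1 sit lower in siXBP1 than in any other group, while IFIH1, ISG15 and MX1 do not separate siXBP1 from siCtrl.

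With MKC8866 no member was called in either direction. Of all 21045 genes tested, 3.11% were called lower and 1.36% higher, so few calls were made in this comparison at all. At an unadjusted p under 0.05 edgeR gave 2 members lower (IFIT1 and OAS1) and 1 higher (RIGI), and DESeq2 called 0. RIGI measured 16.5, 17.3, 17.8 and 18.2 CPM in Vehicle and 19.4, 22.2, 20.2 and 18.1 CPM in MKC8866. The lowest MKC8866 library lay within the Vehicle range, and the log2 fold change of 0.19 (SE 0.07, edgeR adjusted p = 0.118) pointed away from the fall after knockdown. OAS1 measured 2.88, 2.76, 3.64 and 2.62 CPM in Vehicle and 2.26, 2.18, 2.69 and 2.31 CPM in MKC8866, with 1 MKC8866 library inside the Vehicle range and a log2 fold change of -0.33 (95% confidence interval -0.61 to -0.05, edgeR adjusted p = 0.224).

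IFIT1 measured 9.70, 9.60, 8.79 and 9.14 CPM in Vehicle and 8.18, 8.45, 8.27 and 7.84 CPM in MKC8866. These groups did not overlap, but the difference was small (log2 fold change -0.18, SE 0.08) and not called (edgeR adjusted p = 0.235). IFIT2 ranged from 14.2 to 15.7 CPM in Vehicle and from 13.3 to 14.99 in MKC8866, and IFIT3 from 4.80 to 5.51 and from 4.46 to 5.94. Their log2 fold changes were -0.10 (95% confidence interval -0.24 to 0.04) and -0.01 (-0.23 to 0.20), which leave out falls of the size seen after knockdown. ISG15, IFIH1, TLR3 and MX1 had log2 fold changes between -0.14 and 0.16.

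In the inhibitor experiment same-numbered libraries tended to move away from their group means together, and with the number as a replicate block 2 members passed the test. RIGI was then higher (edgeR adjusted p = 0.0157) and ISG15 lower (edgeR adjusted p = 0.0489). That paired fit also made more calls over all genes, 7.05% lower and 6% higher. ISG15 measured 31.1, 23.4, 28.4 and 23.5 CPM in Vehicle replicates 1 to 4 and 26.9, 21.7, 27.7 and 20.4 CPM in the MKC8866 replicates of the same numbers, lower in 4 of 4 pairs. OAS1 and IFIT1 were also lower in 4 of 4 pairs without passing the test (edgeR adjusted p = 0.0952 and 0.103 with the block), and RIGI was higher in 3 of 4.

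The responses to knockdown and to inhibitor were compared in a fit of all 16 libraries. For 6 members the knockdown response was the lower and for none the higher, where over all 20357 genes tested 12.7% were lower and 10.6% higher. No member was higher at an unadjusted p under 0.05 in edgeR, and DESeq2 called 0 higher. The difference was largest for OAS1 (log2 -1.14, SE 0.20, edgeR adjusted p = 4.81e-05), followed by RIGI at -0.94 (SE 0.10), IFIT2 at -0.82 (SE 0.10), IFIT3 at -0.73 (SE 0.16), IFIT1 at -0.49 (SE 0.13) and TLR3 at -0.39 (SE 0.12, edgeR adjusted p = 0.0137). IFIH1, ISG15 and MX1 were not called. The experiments differ in the way the pathway was blocked, in transfection and in duration, and these cannot be told apart in this difference.

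Because transfected RNA can itself be seen by these sensors, the transfected control was also set against the untransfected Vehicle. The groups differ in siRNA with its reagent, in DMSO and in time, which cannot be told apart, and both serve as controls above. The 2 controls were not equal in XBP1 itself, which was lower in siCtrl (log2 fold change -0.39, SE 0.05, edgeR adjusted p = 1.98e-06). The part of this in the member values was not tested. Of the members, RIGI alone was called, higher in siCtrl, where over 21092 genes 7.66% were higher and 6.34% lower. Its siCtrl libraries lay between 18.7 and 22.7 CPM and its Vehicle libraries between 16.5 and 18.2, without overlap, a rise of 1.19-fold (log2 fold change 0.25, SE 0.07, edgeR adjusted p = 0.0115), and this call was lost without siCtrl replicate 4 (edgeR adjusted p = 0.0578). TLR3 was also higher at an unadjusted p under 0.05 (log2 fold change 0.19, SE 0.08, edgeR adjusted p = 0.142). No member was lower, by edgeR at an unadjusted p under 0.05 or by DESeq2. The effectors among the members were not called between these groups, with log2 fold changes of -0.07 for IFIT1 (95% confidence interval -0.24 to 0.10), 0.08 for IFIT2 (-0.05 to 0.21), 0.17 for IFIT3 (-0.05 to 0.39), 0.25 for OAS1 (-0.02 to 0.52), -0.04 for ISG15 (-0.21 to 0.13) and -0.09 for MX1 (-0.26 to 0.08). IFIH1 was at -0.01.

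**Figure D3:**
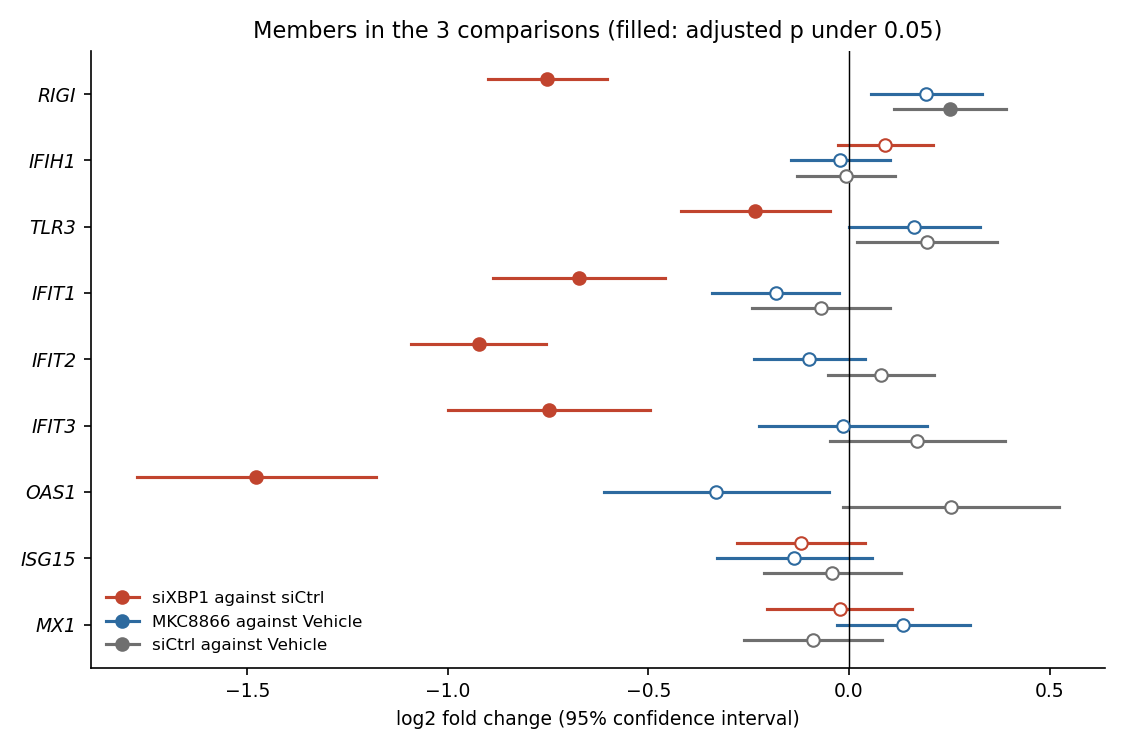
Log2 fold change (x axis) of each member (y axis) in siXBP1 against siCtrl (red), MKC8866 against Vehicle (blue) and siCtrl against Vehicle (grey), with 95% confidence intervals from edgeR. Filled points have an adjusted p under 0.05: 6 red points, all below 0, no blue point, and the grey point of RIGI at 0.25. The red and grey points share the siCtrl libraries, and the blue and grey points share the Vehicle libraries.

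Interferon genes themselves were close to silent. Of 21 listed, 15 had 0 counts in every library, among them all 13 alpha interferon genes, where a count of 0 allows up to 0.087 to 0.104 CPM in a library (3 counts, counting error only). Fragments that map to several places were not counted, so reads of the near-identical alpha genes could be missed. IFNB1 had 2, 5, 7 and 5 counts in siCtrl, 1, 1, 2 and 4 in siXBP1, 3, 5, 3 and 6 in Vehicle and 7, 5, 1 and 5 in MKC8866. IFNL1, a type III interferon, had 3 to 7 counts in siCtrl, 1 to 5 in siXBP1, 6 to 13 in Vehicle and 4 to 12 in MKC8866. Neither was tested for the knockdown, since no siXBP1 library exceeded 5 counts, and neither was called for MKC8866 or between siCtrl and Vehicle.

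Of 18 receptors and signal carriers tested, 4 fell (22.2%, against 18.2% of all genes) and 5 rose (27.8%, against 16.5%) after knockdown. IFNAR1, the low-affinity chain of the type I receptor, measured 95.7 ± 4.9 CPM in siCtrl and 66.9 ± 1.2 in siXBP1 (SD, n = 4), a log2 fold change of -0.52. USP18, which removes ISG15 from proteins and dampens the receptor, changed by -0.35 and STAT2 by -0.27. Against these, SOCS1, which inhibits JAK kinases, rose by 1.27 on the log2 scale from 20 to 32 counts per library in siCtrl to 51 to 64 in siXBP1. JAK1 rose by 0.34 and IFNAR2, the other chain of the type I receptor, by 0.33. IRF9, a transcription factor of this route, was scarce in all groups, with 17 to 38 counts per library.

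Of 22 other sensors and adaptors tested, 9 fell after knockdown (40.9%, against 18.2% of all genes) and 3 rose (13.6%, against 16.5%). The largest fall was that of OAS3, a larger 2-5A synthetase next to OAS1 on the chromosome, from 64.2 ± 5.4 to 26.3 ± 1.0 CPM (SD, n = 4, log2 fold change -1.29). OAS2, the third synthetase of that cluster, fell by 1.10 on the log2 scale from 19 to 26 counts per library to 5 to 13, and is named here after its value was seen since its mean level is under 1 CPM. EIF2AK2, the double-stranded RNA kinase PKR, fell by 0.72 from 67.1 ± 1.3 to 40.8 ± 0.8 CPM (SD, n = 4), and IKBKE, a kinase of the same signalling route, fell by 0.42. TANK rose by 0.21, MAVS by 0.20 and TRAF6 by 0.18 (edgeR adjusted p = 0.0498), all adaptors of sensor signalling. IRF7, an interferon-induced activator of interferon genes, fell by 0.21. DHX58, the helicase LGP2, was at -0.43 without passing the test (edgeR adjusted p = 0.119), and IRF3, TICAM1 and ADAR, which edits double-stranded RNA, were not called either.

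Of 47 other interferon-stimulated genes tested, 21 fell after knockdown (44.7%, against 18.2% of all genes) and 5 rose (10.6%, against 16.5%), with a median log2 fold change of -0.17. UBE2L6, the enzyme that passes ISG15 on to its targets, fell most, from 58 to 83 counts per library to 12 to 25 (log2 fold change -1.79). UBA7, which activates ISG15 and was looked up after its value was seen, fell by 0.39, and HERC5, the matching ligase, was not called at -0.16 (edgeR adjusted p = 0.231). ISG15 itself was not called, as above. Also lower, among genes with a mean of at least 1 CPM, were the chemokine CXCL11 (-0.81 on the log2 scale) and the antiviral factor SAMD9 (-0.73). The rises were led by TDRD7, a protein of RNA granules, with a log2 fold change of 1.16, followed by TRIM22 at 0.68 and GBP1 at 0.24. TDRD7 measured 5.42 to 7.17 CPM in siCtrl, 12.7 to 14.4 in siXBP1, 13.9 to 15.6 in Vehicle and 15.04 to 15.5 in MKC8866. It was thus the control siRNA group that stood apart for this gene, with a log2 fold change of -1.27 against Vehicle (SE 0.09).

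**Figure D4:**
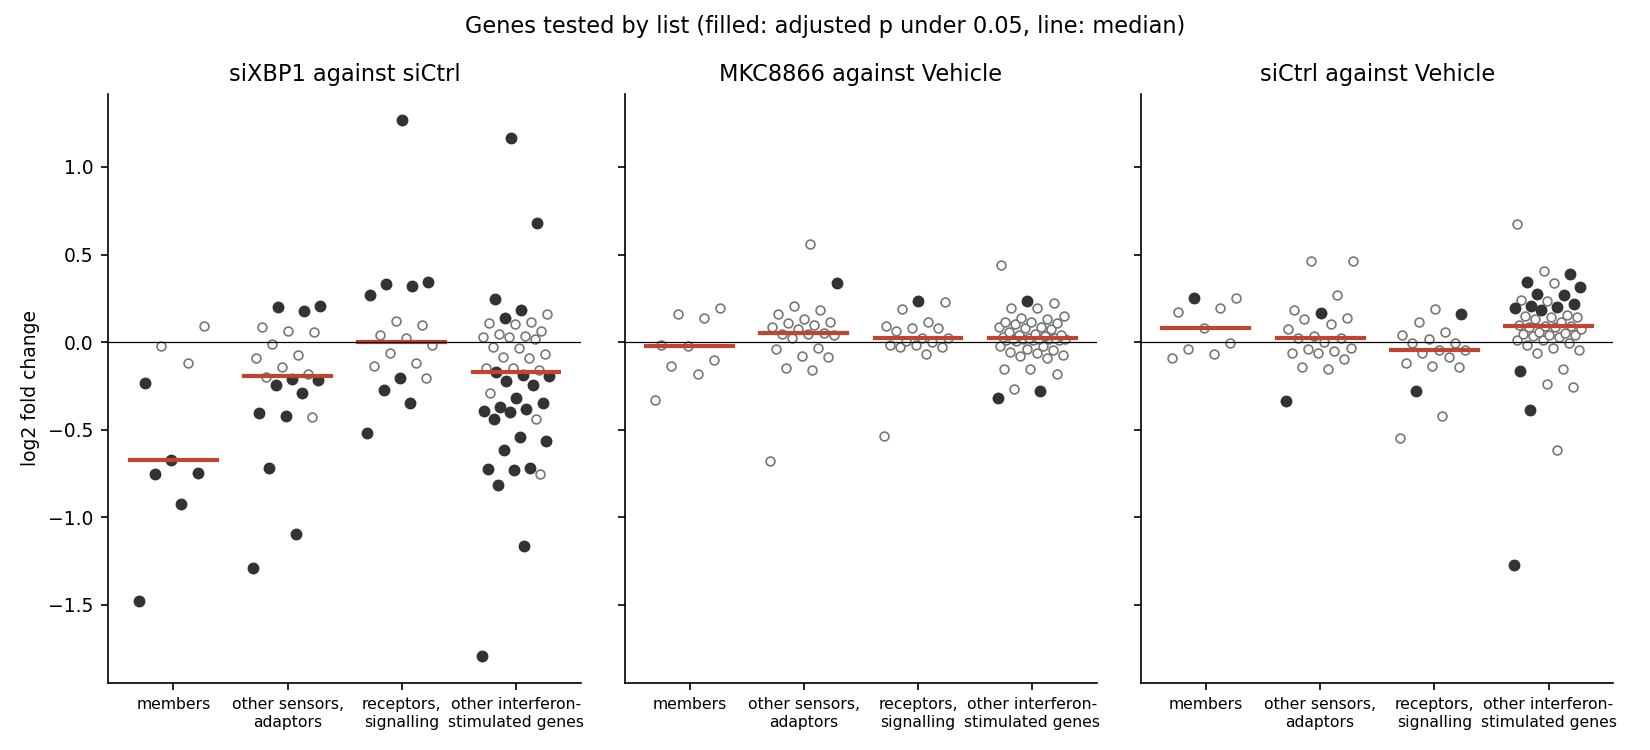
Log2 fold change (y axis) of the tested genes of each list (x axis) in 3 comparisons (panels). Filled points have an edgeR adjusted p under 0.05 and the red line is the list's median. After knockdown the medians were -0.67 for the members, -0.19 for the other sensors and adaptors, 0.00 for receptors and signalling and -0.17 for the other interferon-stimulated genes, and with MKC8866 all 4 medians lay between -0.02 and 0.05.

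Over the pathway lists together, 34 of 87 tested genes fell after knockdown (39.1%, against 18.2% of all genes) and 13 rose (14.9%, against 16.5%). With MKC8866, 2 of 91 fell (2.2%, against 3.11% of all genes) and 3 rose (3.3%, against 1.36%). Those lower were TRIM5, a restriction factor (log2 fold change -0.32), and ISG20, an exonuclease (-0.28), and those higher were TRAF3, an adaptor (0.33), IRF1, a transcription factor (0.24) and TRIM21, an antibody receptor of the cytosol (0.23). With the replicate block 14 of the 91 were higher, in the paired fit that called 6% of all genes higher. Between siCtrl and Vehicle 12 of 90 were higher (13.3%, against 7.66% of all genes), 10 of them among the 48 other interferon-stimulated genes (20.8%), led among the interferon-stimulated genes by PARP14 (0.39), DDX60L (0.35) and DTX3L (0.31), and 5 were lower (5.56%, against 6.34%), among them TDRD7, CMPK2 (-0.39), RNF135 (-0.34) and JAK2 (-0.28). In the difference between the responses, 23 of 87 were lower for the knockdown (26.4%, against 12.7% of all genes) and 4 were higher (4.6%, against 10.6%). Among those with a mean of at least 1 CPM, the lower ones were led by UBE2L6 (-1.74), OAS3 (-1.40) and SAMD9 (-0.85). Of the higher ones, SOCS1 was at 1.18 and TDRD7 at 1.12.

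None of the 3 genes whose pattern over the 16 libraries was most like that of a member was in the pathway lists. These lists do not hold every gene linked to interferon, so a related gene outside them could still be among the closest. Among 15041 genes with a mean of at least 1 CPM, the closest by Pearson correlation of log2 CPM were HSP90AB1 for IFIT2 (r = 0.98), RPL19 for IFIT1 (0.96), MAFG for IFIT3 (0.94), SLC25A40 for RIGI (0.96) and CAMSAP1 for OAS1 (0.97). For members that were not called the closest correlation was lower, 0.82 with GPC2 for IFIH1, 0.92 with RPS9 for ISG15 and 0.90 with ZNF319 for MX1, and TLR3 had 0.89 with APBB2. At rank 3 stood, among others, ETV7 for MX1 (0.88) and BIRC3 for RIGI (0.95). These values describe libraries that share 4 groups and their depth, and 1 group that stands apart is enough to give a high value.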

How the data were processed

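RNA of LNCaP cells (16 libraries, 4 per group) was sequenced as paired ends. Per the labels and file headers, the authors aligned reads to GRCh38 with STAR 2.5.2a and counted fragments per gene with featureCounts 1.5.0-p3 on Ensembl release 85. The deposited counts are not normalized, were made without regard to strand, and leave out multimapping fragments and those shared by 2 genes. Depth is given in the report. For genes of few counts, counting error limits precision.

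The tests were two-sided quasi-likelihood F tests on counts (edgeR 4.0.16 under R 4.3.3, TMM normalization), one model per comparison and all 16 libraries for the difference between responses, keeping a gene when its count exceeded 5 in 1 or more libraries of every group compared, after the paper's methods. Calls have a Benjamini-Hochberg adjusted p under 0.05 over all genes tested. CPM used TMM-scaled totals and RPKM the exon length of the annotation. Alternatives were DESeq2 1.42.0, its size factors in edgeR, no filter, at least 10 counts in every library, a replicate block, all libraries in one fit, other arms for the transfection comparison, and each library left out in turn. Scripts were tested on simulated data.

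Same-numbered libraries tended to deviate together in the inhibitor experiment (r over genes 0.102 to 0.379 in 4 of 4 pairs, median 0.219), where the labels give the numbers but no source of pairing. The 12 differently numbered pairs there ranged from -0.253 to 0.159 (median -0.069), so the lowest same-numbered pair lay within their range. Same-numbered pairs were at 0.001 to 0.068 (median 0.045) in the knockdown experiment and -0.160 to 0.128 (median 0.030) between siCtrl and Vehicle.

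The members and all gene lists were chosen with earlier results of these data known. Named are the 9 members, XBP1, up to 3 genes per list, comparison and direction with the largest called log2 fold change and a mean of at least 1 CPM, fixed pathway genes (1 of them not reported here), overlapping genes, and the closest genes by correlation over the 16 libraries. Others are said to be chosen after their values were seen. Promoters are from RefSeq, and symbols were matched by gene ID for 56948 of 58051 genes.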

Additional observations from a re-analysis of the deposited data

Results flagged for a closer look

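In siCtrl, IFIT2 in replicate 4 (16.2 CPM) and IFIT3 in replicate 1 (4.71 CPM) stood apart from the other 3 libraries by the Dixon criterion. These are 2 of 36 combinations of member and group, where chance gives about 1 in 20. Without siCtrl replicate 4 the log2 fold change of IFIT2 after knockdown, and without siCtrl replicate 1 that of IFIT3, kept their sign and their call.

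The responses to knockdown and to MKC8866 differed in the test of the difference itself, by edgeR over 16 libraries, for 6 members. The knockdown minus inhibitor difference was -0.49 for IFIT1 (adjusted p = 0.00451), -0.82 for IFIT2 (adjusted p = 4.01e-07), -0.73 for IFIT3 (adjusted p = 0.000977), -1.14 for OAS1 (adjusted p = 4.81e-05), -0.94 for RIGI (adjusted p = 1.13e-08) and -0.39 for TLR3 (adjusted p = 0.0137) on the log2 scale. The experiment and the kind of inhibition cannot be told apart in these values.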

How the results depend on the processing

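The calls of OAS1, IFIT1, IFIT2, IFIT3 and RIGI after knockdown and in the difference between responses kept their direction and side of the threshold under every alternative run, while TLR3 after knockdown was called in 5 of its 14 alternatives. With the replicate block, MKC8866 gave 1 member higher and 1 lower, and 14 pathway genes higher (5 with no filter). The paired fit changed no call of a member in the other comparisons. Leaving out 1 library gave 0 to 1 members higher between siCtrl and Vehicle (0 without siCtrl replicate 4), 1 to 2 pathway genes lower with MKC8866 (1 without Vehicle replicate 4) and 3 to 6 lower between siCtrl and Vehicle (3 without siCtrl replicate 2). It also turned the sign of small uncalled log2 values, which ranged from -0.061 to 0.018 for MX1, -0.028 to 0.024 for IRF3 (0.0032 with at least 10 counts in every library) and -0.0080 to 0.18 for IFIT5 after knockdown, from -0.094 to 0.045 for IFIT3 and -0.054 to 0.0047 for IFIH1 with MKC8866, from -0.043 to 0.017 for IFIH1 and -0.096 to 0.043 for ISG15 between siCtrl and Vehicle, and from -0.066 to 0.091 for ISG15 in the difference between responses. Taking transfection as the mean of both transfected against both other groups gave 0 members higher and 5 lower and 23 pathway genes lower, and siXBP1 against MKC8866 gave 0 and 6, with 5 pathway genes higher and 29 lower. By construction these contain the knockdown. In that order the log2 values turned to -0.34 and -0.74 for IFIT2, -0.20 and -0.56 for IFIT3, 0.043 and 0.11 for IFIH1, -0.23 and -0.69 for RIGI, -0.0093 and -0.20 for TLR3, -0.33 and -0.89 for OAS1 and -0.093 and -0.33 for IFNAR1, and in the latter to -0.099 for PARP14 and 0.010 for PNPT1. Leaving out 1 library also ended the calls of TRAF6 (6 of 8 libraries, and with the replicate block), TRIM22 (siCtrl 1, siXBP1 3 or 4), IRF7 (siCtrl 2, siXBP1 3) and OAS2 (siCtrl 3, siXBP1 2) after knockdown, where DHX58 gained one (without siCtrl 2, edgeR adjusted p = 0.0424), ISG20 (Vehicle 4) and TRIM21 (7 of 8) with MKC8866, and CMPK2 (siCtrl 1 or 2, Vehicle 2 or 3), DDX60L (Vehicle 1 or 3), IFNAR1 (siCtrl 3 or 4, Vehicle 1, 2 or 3) and PNPT1 (siCtrl 2 or 3, Vehicle 1 or 2, and with the replicate block, edgeR adjusted p = 0.0505) between siCtrl and Vehicle. The cause of the other changes was not tested. With no group lacking thapsigargin, the response to stress itself was not measured.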
